A study of Mus musculus with 34 samples.

Results

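The region described here is mouse chromosome 15 from 63 Mb to its end, on the telomeric side of Myc and Pvt1. Its members are the 203 windows of 200 kb that start at or beyond 63000000 in mouse genome build mm9, out of 12836 deposited windows. They were set by position, with earlier results of these data known. They run from chr15:63000001-63200000 to chr15:103400001-103494974, a length of 40.5 Mb. The 290 windows of chromosome 15 that start below 61 Mb (the centromeric side) and the 10911 windows of the autosomes other than 12 and 15 served as references. Contacts of the immunoglobulin heavy chain locus Igh were measured by circular chromosome conformation capture (4C) with the restriction enzyme HindIII in 2 mouse plasmacytomas, with 2 libraries of each. TEPC1165 is a Balb/c plasmacytoma for which the labels give no genotype, and PCT4961 is a Balb/c plasmacytoma labelled AID-/- BclXL. No treatment, time or age is given for either, the labels do not name the translocation that either tumor carries, and each group is 1 tumor. The comparison asks how far along the arm beyond Myc the Igh locus makes contact.

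In 4C, chromatin is fixed, cut and religated, and the fragments joined to a chosen bait are sequenced, so reads on a fragment report how often it lay close to the bait. Plasmacytomas are tumors of antibody-secreting plasma cells, and in the mouse many carry a translocation between chromosome 12, which holds Igh, and chromosome 15, which holds the growth-promoting transcription factor gene Myc. Pvt1 is a long noncoding RNA gene next to Myc on its telomeric side, and translocation breakpoints are known in both genes. AID, the cytidine deaminase that starts class switching, makes DNA lesions at Igh from which such translocations can arise, and Bcl-xL protects cells from apoptosis. In bulk 4C, a contact made by few cells and a contact made rarely in every cell cannot be told apart.

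Genes could not be placed in windows, because the gene table at hand is for GRCm38.p6 and the windows are in mm9. The table gives only the order of genes along the arm, and all 38 genes of a list for this arm were found in it. Myc and Pvt1 came first, followed towards the telomere by Asap1, Adcy8, Kcnq3, Tg (thyroglobulin), Ndrg1, Trappc9, Ago2 (an Argonaute protein of RNA silencing) and Ptk2 (focal adhesion kinase). Then came Ly6a, Csf2rb and Il2rb (cytokine receptor chains), Apobec3 (a cytidine deaminase that restricts retroviruses), Tnfrsf13c (the BAFF receptor of B cells), Vdr (the vitamin D receptor), Krt5 and the Hoxc genes, with Nckap1l last.

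The TEPC1165 libraries held 1890718 and 1776498 reads and the PCT4961 libraries 1668589 and 2178689. Values are given as RPM, reads scaled to 1000000 reads outside the bait region, where the bait region is the highest window of chromosome 12 and those within 1 Mb of it (11 windows). The reads so counted numbered 1735257 and 1569886 in TEPC1165 and 1048003 and 1366466 in PCT4961.

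Libraries of different tumors that carry the same replicate number resembled each other more than the 2 libraries of 1 tumor did. Over the 203 windows, the Pearson correlation of log2(reads + 1), given as a description since windows are not independent, was 0.897 for the pair numbered 1 and 0.806 for the pair numbered 2. It was 0.541 between the TEPC1165 libraries and 0.526 between the PCT4961 libraries. Among the 144 windows with at least 100 reads in TEPC1165 library 1, PCT4961 library 1 held a median of 5.08% of those reads, and 79.9% of these windows lay between 3% and 7%. For the libraries numbered 2 the median was 5.05% over 142 windows, and 75.4% lay in that range. Between libraries of different numbers only 25.4% and 22.2% of windows did. Of the 29 windows without reads in TEPC1165 library 1, PCT4961 library 1 had reads in 2 and PCT4961 library 2 in 16. PCT4961 values on this arm are therefore given as deposited and again after subtraction of the share seen at 61 to 63 Mb, where PCT4961 held 4.53% (libraries 1) and 4.46% (libraries 2) of the TEPC1165 reads. Values left after subtraction were not taken below 0. The likeness was not confined to the arm. On the reference autosomes, same-numbered libraries correlated at 0.645 and 0.635. The TEPC1165 libraries correlated at 0.116 there and the PCT4961 libraries at 0.251. Whether reads passed between same-numbered libraries, in either direction, was not tested. If they did, the deposited PCT4961 values on the arm are in part TEPC1165 reads. The TEPC1165 and the autosomal values may then also hold reads of the other tumor.

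**Figure D1:**
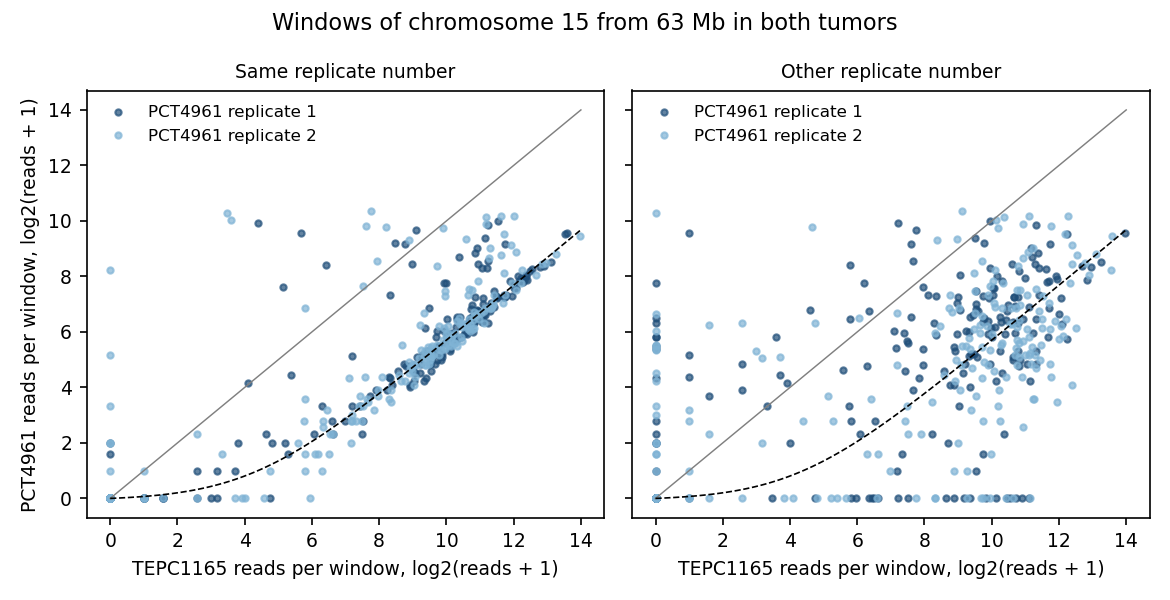
Reads per window in PCT4961 (y axis, log2(reads + 1)) against TEPC1165 (x axis, log2(reads + 1)) for the 203 windows, for pairs of libraries with the same and with different replicate numbers. The solid grey line marks equal reads and the dashed line 5% of the TEPC1165 reads. With the same number most points lie along the dashed line (correlations 0.897 and 0.806), and with different numbers they scatter.

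The telomeric side of the Myc locus carried about 20 times the Igh contact per window of the autosomes other than 12 and 15 in TEPC1165, and about 3 times in PCT4961 as deposited. The 203 windows held 282628 reads in TEPC1165 library 1 and 228110 in library 2, which was 16.3% and 14.5% of all reads away from the bait. The PCT4961 libraries had 23962 and 26490 reads there, or 2.29% and 1.94%. The groups did not overlap: the mean share was 15.4% ± 1.24 (SD, n = 2) in TEPC1165 and 2.11% ± 0.246 (SD, n = 2) in PCT4961, a ratio of 7.29. The exact two-sided permutation p was 0.333, the smallest that 2 libraries against 2 allow. The log2 ratio of PCT4961 to TEPC1165 was -2.87 on this scale, -1.83 over the reads outside chromosome 12 and -3.39 over all reads of the library, so its size depended on the scaling while its direction did not. After the subtraction, 1.19% and 1.28% of reads were left in PCT4961.

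Per window, the arm averaged 802 and 716 RPM in TEPC1165. The centromeric side averaged 13.1 and 20.7 RPM there, so the telomeric side was 61.1 and 34.5 times as high within the same chromosome. The reference autosomes averaged 40.04 and 33.3 RPM, and the arm was 20.04 and 21.5 times that level. No stretch of 203 consecutive windows on the 17 reference autosomes exceeded 104.1 RPM per window in TEPC1165 library 1 or 72.0 in library 2, among 7477 stretches. The raised contact did not rest on the windows nearest to Myc: from 65 Mb on, the ratio to the centromeric side was still 54.3 and 27.6.

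In PCT4961 the arm averaged 113 and 95.5 RPM per window, 5.41 and 3.66 times the centromeric side and 3.26 and 2.86 times the autosomes. These levels also lay above every autosomal stretch of that length, of which the highest reached 75.02 and 73.4 RPM. With the shared reads subtracted, 58.4 and 62.8 RPM per window were left in PCT4961. Those values lay below the highest autosomal stretches as deposited, though above the subtracted means of the autosomes (34.2 and 33.5 RPM) and of the centromeric side (21.4 and 26.4 RPM), with a telomeric to centromeric ratio of 2.73 and 2.38. The ratio differed between tumors by more than its spread: 47.8 ± 18.8 (SD, n = 2) in TEPC1165 and 4.53 ± 1.23 (SD, n = 2) in PCT4961 as deposited (exact permutation p = 0.333 on the log2 ratio).

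The contact was broad and not confined to a few bright windows, though it was uneven. In TEPC1165, 174 and 173 of the 203 windows had reads, against 32.8% and 24.5% of centromeric windows and 38.7% and 32.9% of autosomal ones. The median window held 473 and 371 RPM in TEPC1165 and 44.8 and 27.1 RPM in PCT4961, while the median autosomal window held 0 in each library. It took the 28 and 25 highest windows to hold 50% of the arm's reads in TEPC1165 and the 21 and 14 highest in PCT4961. The 10 highest windows alone held 26.7% and 30.8% in TEPC1165 and 32.5% and 40.2% in PCT4961. The windows at 10 Mb or more from the Myc side, 159 of the 203, held 71.0% and 65.7% of the arm's reads in TEPC1165. In PCT4961 they held 82.2% and 85.1%.

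The share of HindIII fragments with at least 1 read, which does not depend on how many reads a fragment drew, set the arm apart too, but separated the tumors much less than reads did. Of the arm's 11819 fragments, 8.11% (95% Wilson interval 7.64 to 8.62) and 7.38% (6.92 to 7.86) were detected in TEPC1165. In PCT4961, 6.80% (6.36 to 7.27) and 6.43% (6.00 to 6.89) were. The means differed by a factor of 1.17, against 7.29 for reads. On the centromeric side the share was between 0.446% and 0.614% in the 4 libraries, and on the autosomes between 0.717% and 0.935%. A fragment counts as detected from a single read, and across the 203 windows the numbers of detected fragments correlated at 0.966 and 0.977 between same-numbered libraries of the 2 tumors.

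In TEPC1165, contact fell steeply over the first 10 Mb and rose again, and its band averages stayed far above the autosomes to the chromosome end. Distance was counted from chr15:61800001-62000000, the highest window of chromosome 15 in all 4 libraries, where TEPC1165 had 282973 and 382973 reads and PCT4961 12510 and 16799. In the band from 1.2 to 2 Mb (4 windows) TEPC1165 averaged 4133 and 5570 RPM per window, and PCT4961 353 and 277. From 2 to 5 Mb (15 windows) the levels were 1187 and 1488 RPM in TEPC1165 and 88.4 and 98.2 in PCT4961. The trough lay from 5 to 10 Mb (25 windows), with 516 and 209 RPM in TEPC1165 and 53.4 and 11.9 in PCT4961. In that band PCT4961 library 2 was at 0.357 times its own autosomal mean.

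Beyond 10 Mb the levels rose again. TEPC1165 averaged 944 and 529 RPM from 10 to 20 Mb (50 windows) and 608 and 579 RPM from 20 to 30 Mb (50 windows). In the last band, 30 Mb to the chromosome end (59 windows), it still held 646 and 679 RPM, which was 16.1 and 20.4 times the autosomal mean of the same library. PCT4961 held 133 and 118 RPM, then 112 and 55.7 RPM, and 111 and 132 RPM in the last band, 3.20 and 3.96 times its autosomal mean. The last 3 bands of TEPC1165 did not form a decreasing series in either library, and distance and RPM over the 203 windows had a Spearman correlation between -0.11 and 0.064 in the 4 libraries.

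Near the Myc side little of the PCT4961 signal was left once the shared reads were subtracted. The nearest band kept 50.1 and 0.727 RPM per window (13.2% and 0.249% of its reads), the 2 to 5 Mb band 4.23 and 24.8 RPM, and the 5 to 10 Mb band 16.7 and 1.92 RPM. All but the first of these 6 values lay below the autosomal mean of the same library, at 34.2 and 33.5 RPM. Beyond 10 Mb more was left: 69.7 and 96.6 RPM from 10 to 20 Mb, 73.6 and 28.3 RPM from 20 to 30 Mb, and 68.1 and 103 RPM in the last band. Each band beyond 10 Mb was thus higher than each nearer band in both PCT4961 libraries. The subtracted share was set at 61 to 63 Mb, so the subtraction by its construction takes out signal next to Myc that follows TEPC1165.

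In each band both TEPC1165 libraries lay above both PCT4961 libraries, with the exact permutation p at its smallest value of 0.333 in all 6 bands. The ratio of the means was 15.4 in the nearest band, 14.3 and 11.1 in the next ones, and 5.85, 7.07 and 5.45 beyond 10 Mb. Scaled to reads outside chromosome 12, the log2 ratios of PCT4961 to TEPC1165 went from between -3.95 and -2.45 to between -2.91 and -1.41 over the 6 bands. The log2 ratio of the 5 to 10 Mb band, -3.47 with all libraries, was -2.68 without TEPC1165 library 1, -4.93 without PCT4961 library 1 and -2.76 without PCT4961 library 2. That of the 20 to 30 Mb band went from -2.82 to -3.41 without PCT4961 library 1. A trend of the ratio with distance was not tested. On detected fragments the tumors overlapped from 5 to 10 Mb and from 10 to 20 Mb, with an exact permutation p of 0.667 in both.

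**Figure D2:**
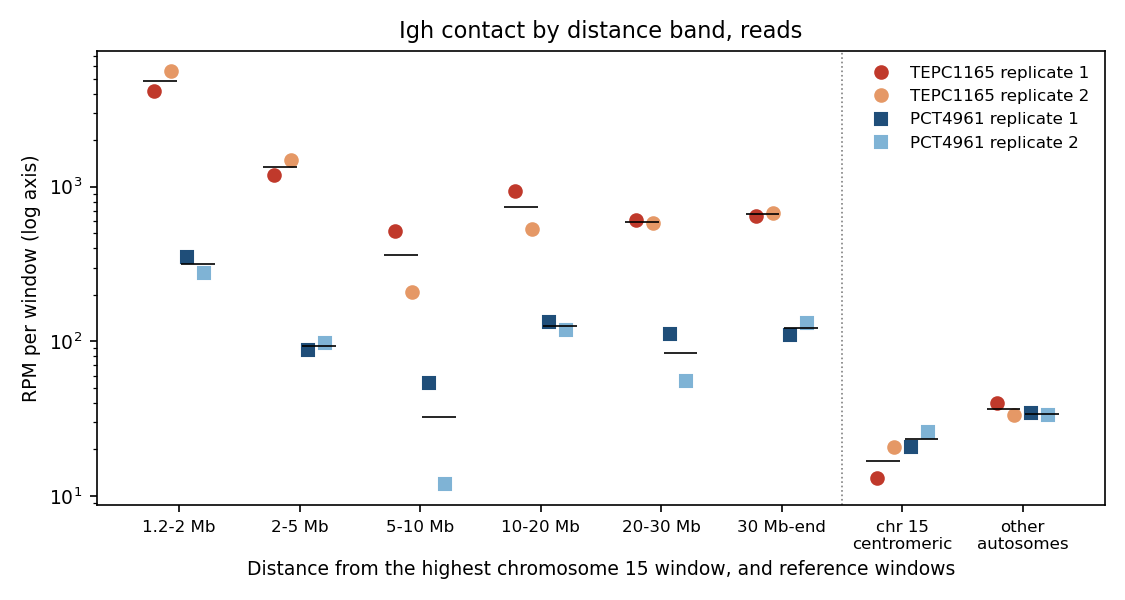
RPM per window (y axis, log scale) in 6 bands of distance from the Myc side (x axis, Mb), one point per library and a black line at each tumor's mean, with the centromeric side and the autosomes at the right. TEPC1165 lies above PCT4961 in each band, from 4133 and 5570 against 353 and 277 RPM in the nearest band to 646 and 679 against 111 and 132 RPM in the last.

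**Figure D3:**
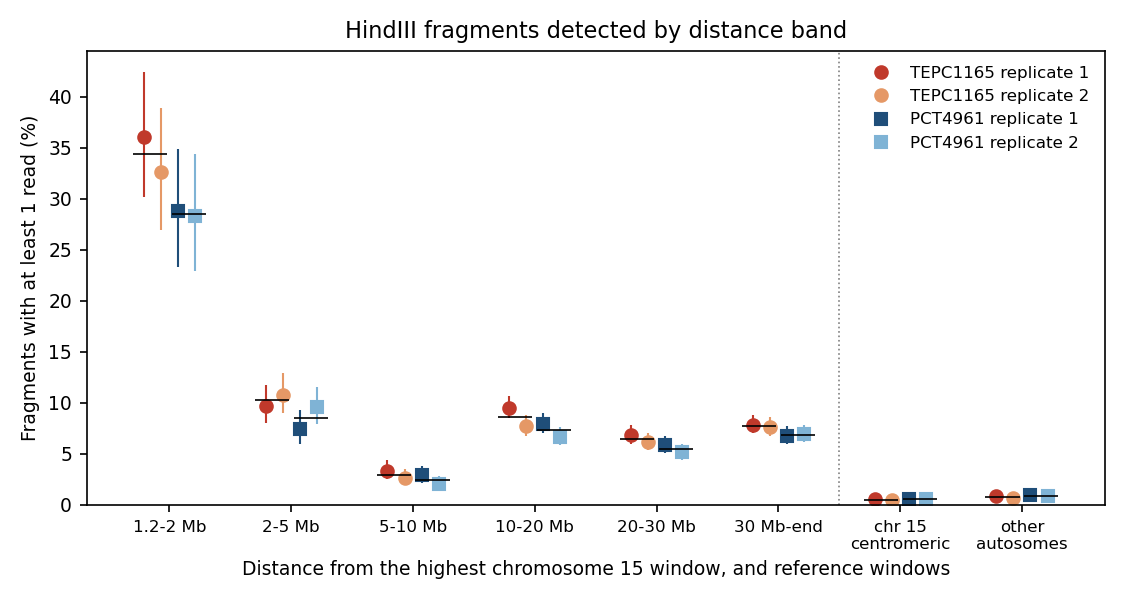
Percent of HindIII fragments with at least 1 read (y axis) in the same bands and references (x axis), one point per library with its 95% Wilson interval, which covers counting error only. The 4 libraries lie close together in each band and are lowest from 5 to 10 Mb.

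In bins of 1 Mb, raised contact in TEPC1165 reached the end of the arm with interruptions. A bin was counted when both libraries exceeded the 95th percentile of the 2195 bins of the reference autosomes (186 and 171 RPM per window in TEPC1165). In TEPC1165, 30 of the arm's 41 bins passed, against 0.592% of the autosomal bins. The unbroken run from 63 Mb was short, ending at 67 Mb, where library 2 held 169.7 RPM and missed its threshold. The bins that did not pass lay mostly at 67 to 73 Mb and 87 to 96 Mb: 5 of the 11 start between 67 and 72 Mb, 1 starts at 79 Mb, and 5 start between 87 and 95 Mb. Several of them were high in 1 library only, such as 72 to 73 Mb with 918 RPM in library 1 and 120 in library 2.

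In PCT4961, 6 of 41 bins passed, against 0.501% of the autosomal bins, and the unbroken run was the bin from 63 to 64 Mb alone. Taken singly, the PCT4961 libraries passed in 11 and 10 bins, against 5.01% of the autosomal bins in each. The count depended on the measure. On detected fragments 29 bins passed in both libraries, against 2.55% of autosomal bins, with an unbroken run of 4 Mb. On reads 11 passed at the 90th percentile (2.28% of autosomal bins) and 1 at the 99th (0.0456%). With the shared reads subtracted, only the bin from 96 to 97 Mb passed in both libraries, against 0.456% of the autosomal bins. It held 172 and 221 RPM per window, and the bin next to Myc did not pass.

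**Figure D4:**
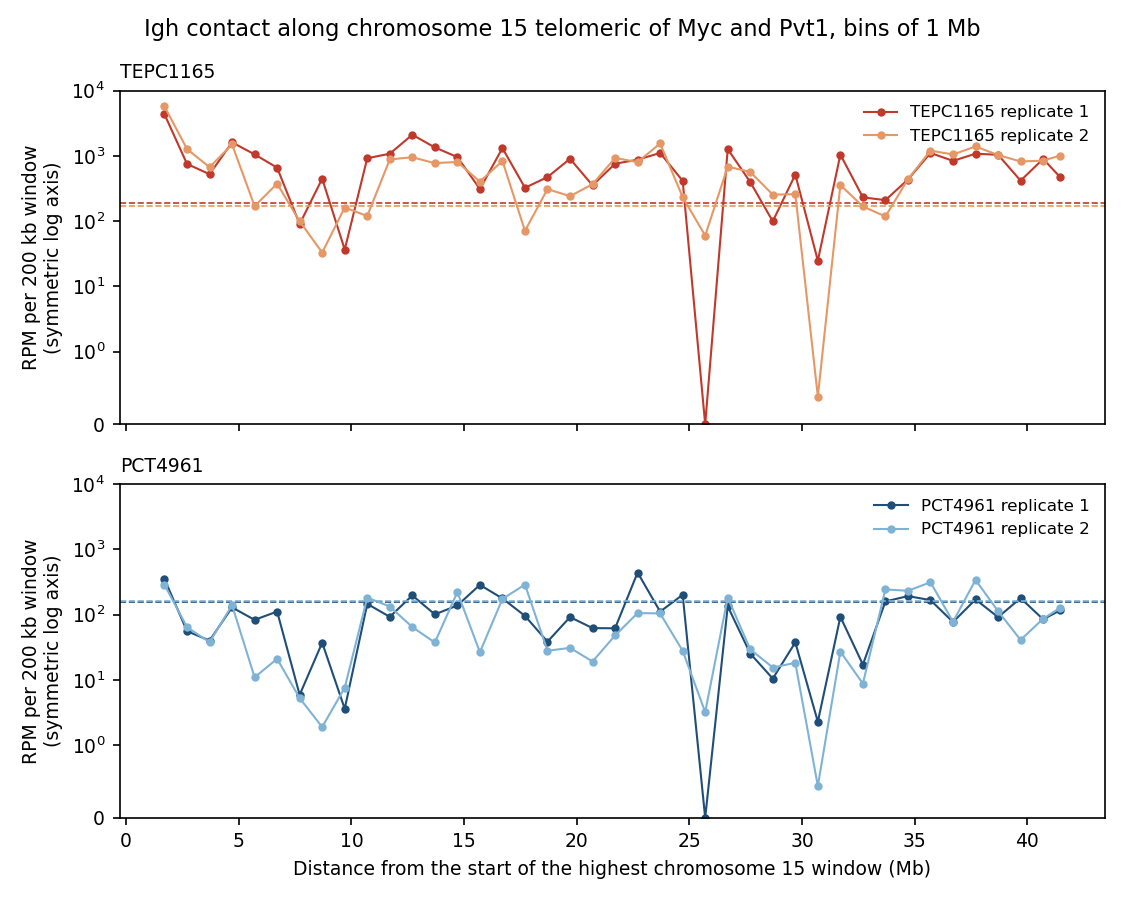
RPM per window in bins of 1 Mb along the arm (x axis, distance from the Myc side in Mb; y axis, linear near 0 and log above) in the 4 libraries, with a dashed line at the 95th percentile of the reference autosomes in the same library. TEPC1165 exceeds the line in both libraries in 30 of 41 bins and PCT4961 in 6. Both TEPC1165 libraries are highest in the first bin, while PCT4961 library 1 is highest in the bin starting at 84 Mb (442 RPM) and library 2 in that starting at 99 Mb (340.0 RPM).

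The highest windows of TEPC1165 on the arm lay next to the Myc side. Ranked by the lower of the 2 libraries among the 104 windows with at least 3 detected fragments in both, the leading window was chr15:63400001-63600000. TEPC1165 had 12336 and 16085 reads in it, PCT4961 750 and 710, on 31, 30, 24 and 27 of its 63 fragments. Its neighbours chr15:63600001-63800000 (7588 and 6549 reads in TEPC1165) and chr15:63800001-64000000 (8792 and 9768 reads) and the first window of the arm, chr15:63000001-63200000 (7054 and 8007 reads), were the next 3. The first window was higher than the one just outside the border, chr15:62800001-63000000, with 3921 and 4837 reads.

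Separate peaks stood farther out. The window chr15:74600001-74800000, 12.8 Mb from the Myc side, drew 11923 and 4854 TEPC1165 reads against 733 and 302 of PCT4961, on 24, 19, 24 and 16 of its 74 fragments. The TEPC1165 libraries differed there, with 6871 RPM in library 1 and 3092 in library 2. At 23.6 Mb, chr15:85400001-85600000 drew 5355 and 7342 TEPC1165 reads against 231 and 344 of PCT4961. The other leading windows of TEPC1165 were the adjoining pair chr15:66400001-66800000, chr15:73400001-73600000 and chr15:88600001-88800000, with 3186 to 5326 reads each. In all of these, both TEPC1165 libraries lay above both PCT4961 libraries, which the ranking by high TEPC1165 values favours. By the mean alone, the highest windows of the 5 to 10 Mb band and the last band were chr15:67000001-67200000 (5333 and 528 reads) and chr15:99800001-100000000 (4735 and 2022 reads), which were both higher in library 1. In PCT4961 the highest window of the 5 to 10 Mb band was chr15:68000001-68200000, with 379 reads in library 1 and 11 in library 2.

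The leading windows of PCT4961 were mostly others. Of its 10 highest, by the same ranking over 89 windows, only chr15:63400001-63600000 and chr15:63800001-64000000 were also among the 10 of TEPC1165. First was chr15:96400001-96600000, 34.6 Mb from the Myc side, where PCT4961 had 815 and 1326 reads and TEPC1165 550 and 215. Both PCT4961 libraries were higher there in RPM (778 and 970, against 317 and 137). It was the only window of the 203 in which both PCT4961 libraries lay above both TEPC1165 libraries, against 7.31% of all windows outside the bait region. Its detected fragments did not differ: 9 and 8 of 68 in TEPC1165 and 8 and 9 in PCT4961. The log2 fold change of PCT4961 over TEPC1165 in this window was 2.24 (SE 2.18), and the window was not called (edgeR quasi-likelihood adjusted p = 0.795).

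Others of the PCT4961 list were chr15:72800001-73000000 (573 and 902 reads, beside 3445 and 193 in TEPC1165), chr15:76000001-76200000 (413 and 1121, beside 1320 and 2331) and chr15:84000001-84200000 (925 and 526, beside 2420 and 2530). In the last of these both TEPC1165 libraries were the higher in RPM. The list also held chr15:78000001-78200000, chr15:78400001-78600000, chr15:99600001-99800000 and chr15:103000001-103200000, with 310 to 942 reads in PCT4961. After subtraction the 7 highest windows of PCT4961 by the lower library, without the rule on fragments, were those of this list from 72.8 Mb on except chr15:78000001-78200000, again led by chr15:96400001-96600000 (813 and 1014 RPM). Raw reads were also compared with those of the same-numbered TEPC1165 library, without scaling to library depth. PCT4961 library 1 had at least 100 reads and more than TEPC1165 library 1 in 7 windows, which held 17.6% of its reads on the arm. PCT4961 library 2 had 10 such windows against TEPC1165 library 2, with 26.6% of its reads, and only chr15:96400001-96600000 was in both sets. Without the minimum of 100 reads, PCT4961 had more reads in 10 windows (libraries 1) and 15 windows (libraries 2). Such windows were not counted over the genome, so these counts cannot be set against it.

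A pair of stretches and the very end of the arm were nearly silent in both tumors. From 87.2 to 88.0 Mb, 4 windows with 220 fragments had 0 reads in each library. From 92.0 to 92.8 Mb, 4 windows with 229 fragments held 2, 1, 0 and 3 reads. A count of 0 allows up to 3 reads, or 1.73 RPM in TEPC1165 library 1 and 2.86 RPM in PCT4961 library 1. The last window, chr15:103400001-103494974, is short, with 34 fragments, and had 0 reads in the 4 libraries, although the window before it, chr15:103200001-103400000, held 519 and 2258 reads in TEPC1165. In all, 12 of the 203 windows had no reads in any library and 141 had reads in all 4. On the reference autosomes 3936 of 10911 windows had no reads in any library and 1414 had reads in all 4. Empty windows were thus rarer on the arm than there. How often such silent stretches occur on the autosomes was not counted.

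Fragment density moved with detection. Windows with under 50 HindIII fragments (43 windows) had 12.3% and 11.7% of fragments detected in TEPC1165, and windows with 65 or more (54 windows) had 5.31% and 4.92%. PCT4961 had 10.4% and 9.55% in the first class and 4.40% in both libraries in the second. Across the 203 windows, fragments per window and percent detected had Spearman correlations from -0.33 to -0.31, and on the autosomes from -0.17 to -0.13. The part of fragment density in the peaks and gaps was not tested. Within each class the arm stayed far above the autosomes, where 1.64% and 0.713% of fragments were detected in TEPC1165 library 1 in the same classes.

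Counted window by window, both TEPC1165 libraries exceeded both PCT4961 libraries in RPM in 117 of the 203 windows, against 3.49% of all windows outside the bait region. With the shared reads subtracted it was 126, against 4.48% of all windows. The subtraction lowers PCT4961 where TEPC1165 is high, so by its construction it favours a larger count and gives no second support. From 65 Mb on, as deposited, it was 107 of 193, and on the centromeric side 3 of 290. On detected fragments in place of reads, it was 12 of the 203. The share over all windows was not counted on fragments, so that count cannot be set against the genome. Because same-numbered libraries share a pattern, the 4 libraries are not fully independent in this count.

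The test across the genome called few of these windows. Of the 203, 169 passed the filter on low reads, and edgeR's quasi-likelihood test over 3449 windows called 1 of them (0.522% of all windows tested were called in either direction). That window was chr15:63400001-63600000, lower in PCT4961 with a log2 fold change of -3.68 (SE 0.82, Benjamini-Hochberg adjusted p = 0.0427). By direction, 0.174% of all windows tested were called lower in PCT4961 and 0.348% higher. The median log2 fold change was -3.57 over the 169 windows and -1.01 over all windows tested, a difference of -2.57. With DESeq2's size factors these medians were -4.17 and -1.70, a difference of -2.47. The difference was -2.004 with windows outside chromosome 12 alone, -3.80 with no filter on reads, -1.84 without PCT4961 library 2 and -0.13 on detected fragments. Of the 169, 161 had a negative log2 fold change. The share over all 3449 windows was not counted, but their median of -1.01 means that most of them were negative too. Windows passing the filter through TEPC1165 alone had to differ, so these counts are descriptions.

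In bins of 1 Mb, where reads of 5 windows are summed, the same test called 6 of the 41 bins lower in PCT4961, those starting at 63, 64, 66, 74, 75 and 85 Mb, against 0.412% of all bins tested. The TEPC1165 peaks at 74.6 and 85.4 Mb lie in called bins. These peaks were chosen for high TEPC1165 values and the bins hold the same reads, so the calls give them no separate support. As a single window, the peak at 74.6 Mb had a log2 fold change of -3.49 (SE 1.09) and an adjusted p of 0.543 by edgeR. The peak at 85.4 Mb had -3.79 (SE 1.27) with 0.773 by the same test. The single-window call at 63.4 Mb was lost with a replicate block, which takes up the likeness of same-numbered libraries (edgeR adjusted p = 0.107), with DESeq2 as the test (adjusted p = 0.523), with a filter of 50 reads (0.0518) and with windows outside chromosome 12 alone (0.917). It was also lost without TEPC1165 library 2 (log2 fold change -2.27) and without PCT4961 library 2 (-3.69), and on detected fragments the value was -0.24.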

How the data were processed

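Per the file headers, the authors deposited read counts per 200 kb window of mm9 for each 4C library, with the HindIII fragments of each window and those with a read. The deposited counts were not normalized. How the 4C reads were aligned is not given in the sources used here, nor is the bait position or the handling of duplicates. The members, the gene list and the tests were chosen with earlier results of these data known.

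The highest window of chromosome 12, chr12:114400001-114600000, stood for the bait, and the 11 windows within 1 Mb of it were left out. edgeR 4.0.16 (R 4.3.3) tested PCT4961 against TEPC1165 by its quasi-likelihood test, two-sided, with TMM factors, a prior count of 2 and a minimum of 10 reads in 2 or more libraries. RPM divides by a library's reads outside the bait region. Benjamini-Hochberg adjustment ran over all windows tested, at a threshold of 0.05. The SE beside a log2 fold change is its absolute value divided by the square root of the test's F statistic. It is approximate and is not a value that edgeR gives. Single values were compared by exact two-sided permutation over libraries. Nothing ties the 2 libraries of a tumor to separate cultures, so the p-values reflect only how far these libraries vary, possibly for technical reasons. Without molecular identifiers, the Wilson intervals and the floors of 3 reads describe counting error alone.

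Named windows were those called by edgeR, the 10 per tumor with the highest lower RPM of its 2 libraries among windows with at least 3 detected fragments in both, the highest of each distance band by mean RPM, and the first and last window. Stretches without reads, the window-by-window ratio of same-numbered libraries, the subtraction of shared reads and the count of non-overlapping windows were added after the data were seen. Alternatives were other scalings, filters, bin sizes and percentiles, DESeq2 1.42.0, a replicate block, detected fragments and leaving out each library. On simulated counts for this comparison, edgeR called 193 of 199 windows changed 64-fold and 10 of 3139 unchanged ones at 10% of the estimated spread, and 0 of 147 changed windows at the full spread. Python 3.11.15, pandas 2.3.3 and scipy 1.17.1 gave the descriptive values. The other 30 samples of the series were not used here.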

Additional observations from a re-analysis of the deposited data

How the results depend on the processing

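Of the 203 windows, edgeR called 1. It called 4 with total-read scaling, 6 with DESeq2's size factors, 5 with no filter on reads, and 6 bins when windows were summed to 1 Mb. Over all windows tested, 18 of 3449 were called in the main run, and 27 of 3449, 21 of 3449 and 24 of 8296 with these settings. Of all bins, 14 of 1943 were called. On the arm, edgeR called 0 with a filter of 50 reads, with a replicate block, with windows outside chromosome 12 alone and on detected fragments. Over all windows tested, the same settings called 11 of 1591, 12 of 3449, 2 of 3094 and 0 of 8296. In these settings 36 of 147, 42 of 169, 1 of 169 and 0 of 191 arm windows had an unadjusted edgeR p under 0.05. Among all windows tested it was 113 of 1591, 206 of 3449, 9 of 3094 and 9 of 8296. DESeq2 as the test called 0 on the arm and 0 of 3449 over all windows. Its unadjusted p was under 0.05 in 0 of 169 arm windows and in 165 of all 3449. With 1 library left out, 1 tumor has a single library, so only sizes are given. The arm's median log2 fold change minus that of all windows was -3.21 and -3.25 without TEPC1165 library 1 and 2. It was -2.67 and -1.84 without PCT4961 library 1 and 2. The labels do not say that replicate numbers pair libraries, though deviations of same-numbered libraries correlated at 0.638 over 3449 windows. The window at 63.4 Mb had a log2 fold change of -3.68 with the block (adjusted p = 0.107). The cause of these changes was not tested.

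The unbroken TEPC1165 run was 6 Mb with the 90th percentile, bins of 2 Mb or detected fragments, and 4 to 6 Mb without 1 library. The PCT4961 run was 0.6 Mb in bins of 0.6 Mb, 2 Mb in bins of 2 Mb and 4 Mb on fragments. PCT4961 bins over the percentile numbered 11 at the 90th and 1 at the 99th percentile and 29 on fragments. Of the autosomal bins, 2.28%, 0.0456% and 2.55% passed there. Without 1 library the arm's bins numbered 10 to 11, against 5.01% of autosomal bins. In bins of 0.6 Mb, 8.82% passed on the arm and 0.548% on the autosomes. Without 63 to 65 Mb, 7.01% of fragments were detected in TEPC1165 and 6.00% in PCT4961. On fragments, both TEPC1165 libraries exceeded both PCT4961 libraries in 12 windows, with the share over all windows not counted.

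With the shared reads subtracted, PCT4961 had 1 bin over the percentile, against 0.456% of autosomal bins, and a run of 0 Mb. The nearest band kept 50.1 and 0.727 RPM per window in PCT4961. Log2 fold changes of named windows that changed sign without 1 library ranged from -6.67 to 1.23 at 68.0 Mb, -1.02 to 2.96 at 72.8 Mb, -1.70 to 1.02 at 76.0 Mb, -1.27 to 1.81 at 78.4 Mb, -2.28 to 0.073 at 84.0 Mb and -1.43 to 0.40 at 99.6 Mb. The value at 72.8 Mb was also 0.40 with the replicate block and 0.74 outside chromosome 12, and that at 96.4 Mb was -0.0020 on fragments. The tumor shares, the distance bands and the ratio to the centromeric side kept their direction under each alternative run for them.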

Other observations

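The centromeric side of chromosome 15 held less Igh contact per window than the autosomes in each library. The ratio of its mean RPM to theirs was 0.328 and 0.623 in TEPC1165 and 0.603 and 0.780 in PCT4961, and on detected fragments it was 0.655 and 0.623 in TEPC1165 and 0.657 and 0.623 in PCT4961. The libraries of 1 tumor hardly resembled each other there, with correlations of log2(reads + 1) over 290 windows of 0.031 in TEPC1165 and 0.195 in PCT4961, while same-numbered libraries of the 2 tumors correlated at 0.553 and 0.618. On the telomeric side the TEPC1165 libraries correlated at 0.541. The lower centromeric RPM depended on fragment density. In windows with 65 or more HindIII fragments (187 centromeric windows), libraries 2 were close to the autosomes. The RPM means were 27.6 against 29.0 in TEPC1165 library 2 and 29.2 against 29.0 in PCT4961 library 2. In libraries 1 they were 17.1 against 37.2 in TEPC1165 and 25.7 against 29.8 in PCT4961.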
